A study of Homo sapiens with 9 samples.

Results

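The genes described here are the 10 rows of a bulk RNA-seq table whose symbols are *NFATC1*, *NFATC2*, *NFATC3*, *NFATC4*, *PPP3CA*, *PPP3CB*, *PPP3R1*, *RCAN1*, *RCAN2* and *RCAN3*, out of 60662 genes in all. They are 4 NFAT transcription factors, 3 subunits of the phosphatase calcineurin and 3 RCAN regulators of calcineurin. The rule that picks them uses their names and no measured value, but it was set with earlier results of these data known. The cells were SET2, a *JAK2* mutant line from an acute myeloid leukemia that followed a myeloproliferative neoplasm, cultured with no treatment in all groups. Wild-type cells (WT, n = 3 libraries) were compared with *DYRK1A* KO clone 11H1 (n = 3) and *DYRK1A* KO clone 14B5 (n = 3). Cas9 ribonucleoprotein was delivered by nucleofection, single cells were sorted, and each KO clone was expanded from 1 of them and carried only out-of-frame indels in *DYRK1A*, so its 3 libraries share a founder cell and p values measure the spread between these libraries. No clone of an unedited SET2 cell was sequenced, so that a shared change of both clones cannot be told apart from an effect of editing and cloning.

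Calcineurin is a calcium- and calmodulin-activated phosphatase that removes phosphates from cytoplasmic NFAT proteins, which then enter the nucleus and bind DNA at a GGAAA core, often beside AP-1. DYRK1A is a kinase that helps return NFAT to the cytoplasm by phosphorylation, with GSK3 and casein kinase 1 acting on the same regulatory region, and RCAN proteins bind calcineurin and restrain it. *RCAN1* lies on chromosome 21 with *DYRK1A*, is induced by NFAT from a start inside the gene, and is widely read as a reporter of calcineurin activity. This control acts largely on phosphorylation and localization, which RNA levels do not measure.

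The letters before the annotated starts are shown for the members the results turn on: *NFATC1*, which differed from WT in the same direction in both clones, *NFATC2*, whose direction differed between clones, *RCAN1*, the reporter, and *RCAN3*, which had the largest change. The window is the 250 bases upstream of the RefSeq start on GRCh38.p14, 5′ to 3′ on the strand of the gene. It is printed up to the outermost start in GENCODE v29 where that start falls in the window, which leaves 176 bases of *NFATC1* and 221 bases of *RCAN1*. *NFATC1* is at chr18:79395680-79395855 (plus strand), *NFATC2* at chr20:51562840-51563089 (minus strand), *RCAN1* at chr21:34615143-34615363 (minus strand) and *RCAN3* at chr1:24502586-24502835 (plus strand), with capitals marking GGAAA or its complement TTTCC. The *RCAN3* window lies within the annotated span of the gene, which has a farther upstream start.
NFATC1: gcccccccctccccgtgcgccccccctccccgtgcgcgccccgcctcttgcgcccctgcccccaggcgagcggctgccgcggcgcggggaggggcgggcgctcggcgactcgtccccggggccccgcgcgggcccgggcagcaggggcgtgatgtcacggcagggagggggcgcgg
NFATC2: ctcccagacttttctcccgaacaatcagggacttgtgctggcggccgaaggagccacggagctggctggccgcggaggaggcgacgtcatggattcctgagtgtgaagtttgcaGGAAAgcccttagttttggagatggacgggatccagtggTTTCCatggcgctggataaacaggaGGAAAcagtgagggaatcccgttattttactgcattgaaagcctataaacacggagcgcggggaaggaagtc
RCAN1: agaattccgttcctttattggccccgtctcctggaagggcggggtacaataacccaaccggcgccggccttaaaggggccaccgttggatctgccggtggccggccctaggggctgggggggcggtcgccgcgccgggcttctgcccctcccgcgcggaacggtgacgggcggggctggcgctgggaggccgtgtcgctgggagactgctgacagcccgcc
RCAN3: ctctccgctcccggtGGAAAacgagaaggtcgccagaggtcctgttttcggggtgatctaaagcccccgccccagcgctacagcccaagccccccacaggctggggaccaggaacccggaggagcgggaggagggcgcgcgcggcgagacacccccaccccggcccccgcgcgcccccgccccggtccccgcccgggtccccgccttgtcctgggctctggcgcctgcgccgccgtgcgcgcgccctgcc

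RefSeq promoters were matched for 8 of the 10 members, the exceptions being *PPP3CA* and *PPP3CB*. The NFAT core GGAAA, searched on both strands, was found in 5 of them: 3 times in *NFATC2* and once each in *NFATC1*, where it falls after the stretch printed, *NFATC4*, *RCAN3* and *PPP3R1*. It was present in 55.6% of 35116 promoters of the same length, so its presence does not set these members apart. The AP-1 motif TGANTCA was found in 0 of the matched members and in 6.57% of all promoters. The *RCAN1* window held no GGAAA, but it lies at the outermost start of a gene with 10 annotated coding transcripts that begin at 10 positions, and the counts do not separate transcripts.

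Library totals ran from 32347779 to 60272245 RSEM expected counts, the estimated number of reads per gene. *DYRK1A* RNA was at 196 to 219 CPM in WT, 188 to 192 CPM in 11H1 and 174 to 191 CPM in 14B5. It was lower in 14B5 than in WT (log2FC −0.17, adjusted p = 0.0278 in edgeR), a call not retained in 6 of 14 alternative fits. In 11H1 the log2FC was −0.09 (adjusted p = 0.131 in edgeR) and with both clones pooled −0.13 (adjusted p = 0.126). The RNA of *DYRK1A* does not show the reading frame. CPM are read counts scaled to a common library size with the TMM method. The mitochondrial share of counts ranged over 3.54% to 6.03% in WT, 7.23% to 7.39% in 11H1 and 3.30% to 3.92% in 14B5, and its part in the results below was not tested. The summed level of 10 megakaryocyte markers was 1377 to 1388 CPM in WT, 972 to 1028 in 11H1 and 940 to 981 in 14B5. *ITGA2B* and *GATA1* were high, whereas *VWF* reached at most 5 counts in a library. Of the 9 tested, 7 were lower and 0 higher in KO at an adjusted p of 0.05 in edgeR. Over all genes tested 17.7% were lower and 14.3% higher, shares that also apply to the marker counts in KO that follow. The fall was 1.46-fold for *ITGA2B*, 4.24-fold for *ITGB3* and 8.97-fold for *GP9*. *PF4*, at 0.510 CPM on average in WT, was at 0 CPM in every KO library. The 6 monocyte and granulocyte markers, mostly *LYZ* and *ITGAM*, summed to 263 to 271 CPM in WT, 128 to 136 in 11H1 and 132 to 146 in 14B5. Of the 5 tested in KO, 4 fell and *ELANE* rose (log2FC 4.29, adjusted p = 0.0410 in edgeR). *ELANE* averaged 0.0230 CPM in WT, 0.0651 in 11H1 and 0.862 in 14B5. Of 8 erythroid markers 2 rose in KO, *SLC4A1* (4.15-fold) and *EPOR* (1.99-fold), and of 5 B cell markers all 3 tested fell, *PAX5* (log2FC −2.06), *CD79A* (−0.66) and *CD79B* (−0.48). The part of these marker differences in the results was not tested. Of 8 T cell markers, *CD4* made up nearly all of the summed 184 to 240 CPM. *CD4* was higher in 14B5 than in WT (log2FC 0.29, adjusted p = 3.05e-04 in edgeR), with a log2FC of −0.06 in 11H1 (adjusted p = 0.218). *CD3E*, *CD3G*, *CD8A*, *TRAC* and *LCK* each reached at most 21 counts. *CD3D*, at 0.83 CPM on average in WT, was higher in 11H1 (log2FC 1.86) and lower in 14B5 (−1.28), and *CD2*, at 0.42 CPM in WT, was lower in 14B5 (−1.73; adjusted p at most 0.00706 in edgeR for these 3 calls). In these bulk libraries fewer cells of a state and less RNA per cell cannot be told apart.

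Of the 10 members, 9 had enough counts to be tested and *RCAN2* had 0 counts in every library. With both clones pooled (KO, n = 6), 1 of the 9 was higher than WT and 0 were lower at an adjusted p of 0.05 in edgeR, where 14.3% of 17080 genes tested were higher and 17.7% lower (32.0% in either direction). In 11H1 versus WT, 2 were higher and 2 lower, against 31.8% and 32.8% of 16675 genes (64.6% in either direction). In 14B5 versus WT, 3 were higher and 2 lower, against 24.9% and 28.7% of 16537 genes (53.5% in either direction). Between the clones 7 of the 9 differed, 2 higher and 5 lower in 11H1 than in 14B5, against 31.6% and 32.1% of 16352 genes (63.7% in either direction). Beside these backgrounds, nothing particular to the members was read from their counts of calls. The median log2 fold change (log2FC) of the 9 members was 0.01 in KO, −0.01 in 11H1 and −0.01 in 14B5 versus WT, beside medians of 0.02, −0.01 and −0.01 over all genes tested. Between 11H1 and 14B5 it was −0.14, against 0.00 over all genes. Both comparisons of a clone with WT share the same WT libraries.

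**Figure D1:**
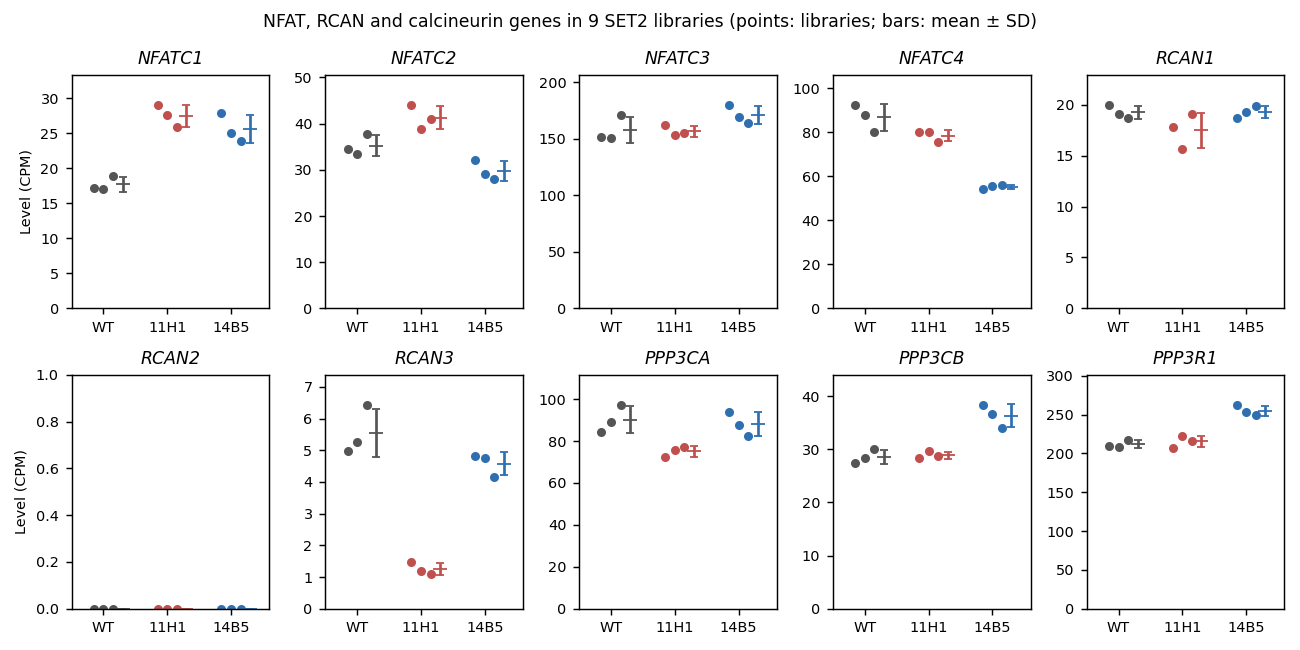
Level of each of the 10 genes in CPM (y axis, from 0) in the 3 WT, 3 11H1 and 3 14B5 libraries; points are libraries, and the bar beside them is the mean ± SD. *NFATC1* lies higher in all 6 KO libraries than in WT, *RCAN3* is near 1 CPM in 11H1 and *RCAN2* is at 0 throughout.

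Among the transcription factors, *NFATC1* (ENSG00000131196.17; chr18:79395856-79529325, plus strand), the factor known for induction through its own NFAT-responsive promoter, measured 17.1, 17.1 and 18.9 CPM in the WT libraries. The 11H1 libraries held 29.0, 27.7 and 25.9 CPM and the 14B5 libraries 27.9, 25.0 and 23.9 CPM. Every KO library lay above every WT library, and the clones overlapped. The rise was 1.50-fold in KO (log2FC 0.59, SE 0.08, adjusted p = 3.88e-04 in edgeR), 1.57-fold in 11H1 (log2FC 0.65, SE 0.07, adjusted p = 4.21e-06) and 1.43-fold in 14B5 (log2FC 0.52, SE 0.07, adjusted p = 1.85e-04). A 2-sided exact permutation test over the 84 splits of 6 and 3 libraries gave p = 0.0119, the smallest it can give, before adjustment for the 9 members tested this way. That test treats the 6 KO libraries as separate units, although they come from 2 clones. Between the clones *NFATC1* differed by a log2FC of 0.12 (95% interval −0.03 to 0.26, adjusted p = 0.143 in edgeR).

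*NFATC2* (ENSG00000101096.20; chr20:51386957-51562831, minus strand), which encodes the NFAT protein best known from T cells, moved in opposite directions in the clones. WT libraries held 34.4, 33.4 and 37.8 CPM, 11H1 libraries 44.0, 38.9 and 41.0 CPM, and 14B5 libraries 32.2, 29.1 and 28.0 CPM. The 3 groups did not overlap, with 11H1 above and 14B5 below WT. It rose 1.18-fold in 11H1 (log2FC 0.24, SE 0.06, adjusted p = 0.00567 in edgeR) and fell 1.20-fold in 14B5 (log2FC −0.26, SE 0.07, adjusted p = 0.00869). The second of these calls was not retained without 14B5 library 2 (log2FC −0.23, adjusted p = 0.0520). The direct difference between the clones was 1.40-fold (log2FC 0.48, SE 0.06, adjusted p = 3.81e-05 in edgeR), and the pooled comparison gave a log2FC of 0.01 (95% interval −0.32 to 0.34, adjusted p = 0.959).

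*NFATC3* (ENSG00000072736.19; chr16:68084751-68229259, plus strand), another calcium-regulated NFAT factor, measured 152, 151 and 171 CPM in WT, 162, 153 and 155 CPM in 11H1, and 180, 169 and 164 CPM in 14B5. Both clones overlapped WT, and the clones did not overlap each other. The log2FC was 0.05 in KO (95% interval −0.10 to 0.21, adjusted p = 0.607 in edgeR), −0.01 in 11H1 (95% interval −0.13 to 0.12, adjusted p = 0.939) and 0.10 in 14B5 (95% interval −0.04 to 0.23, adjusted p = 0.204). Between the clones it was −0.12 (SE 0.05, adjusted p = 0.0463 in edgeR), a call that was not retained in 8 of 14 alternative fits. Without WT library 3, the highest of WT, the value in 14B5 versus WT became 0.17 and passed the threshold (adjusted p = 0.0249 in edgeR). The annotated gene shares 1385 exonic bases with *AC020978.7* on the same strand, which averaged 0.895 unscaled CPM, and the expected counts of *NFATC3* were not whole numbers in any of the 9 libraries.

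*NFATC4* (ENSG00000100968.14; chr14:24365673-24379604, plus strand), the NFAT factor best known from heart and nervous tissue, was at 92.3, 87.7 and 80.2 CPM in WT. It measured 79.9, 79.9 and 75.3 CPM in 11H1, and 54.2, 55.7 and 55.8 CPM in 14B5. All KO libraries lay below WT, 11H1 narrowly and 14B5 clearly. In 14B5 *NFATC4* fell 1.59-fold (log2FC −0.67, SE 0.06, adjusted p = 6.79e-06 in edgeR). In 11H1 the log2FC was −0.14 (SE 0.06, adjusted p = 0.0518 in edgeR), just short of the threshold, which it passed in 7 of 14 alternative fits. The clones differed by 1.43-fold (log2FC 0.51, SE 0.04, adjusted p = 1.41e-06 in edgeR). With both clones pooled the log2FC was −0.38 (SE 0.15, adjusted p = 0.0776 in edgeR; exact permutation p = 0.0238, 2-sided and unadjusted). This pooled call was made without 11H1 library 1 (log2FC −0.43, adjusted p = 0.0492) and when WT and each clone were fitted as 3 groups (log2FC −0.40, adjusted p = 6.65e-06). The permutation treats the 6 KO libraries as separate units, and the fit of 3 groups leaves the difference between the clones out of its error.

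Set per kilobase of annotated exon, these levels describe the make-up of the NFATC transcripts. *NFATC1* contributed 5.66% ± 0.163 (SD, n = 3) of the summed CPM per kb of the 4 genes in WT, 8.64% ± 0.286 in 11H1 and 8.71% ± 0.338 in 14B5, and its WT libraries did not overlap those of either clone. *NFATC3* contributed the largest share in each group, 52.1% ± 2.26 in WT, 50.7% ± 0.528 in 11H1 and 60.0% ± 0.425 in 14B5. *NFATC4* contributed 29.9% ± 2.82 in WT, 26.5% ± 0.788 in 11H1 and 20.2% ± 1.11 in 14B5, so that the 14B5 libraries held the lowest *NFATC4* share and the highest *NFATC3* share. *NFATC2* contributed 12.3% ± 0.412, 14.2% ± 0.550 and 11.1% ± 0.349 in WT, 11H1 and 14B5. These shares are descriptions that depend on the exon length used.

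**Figure D2:**
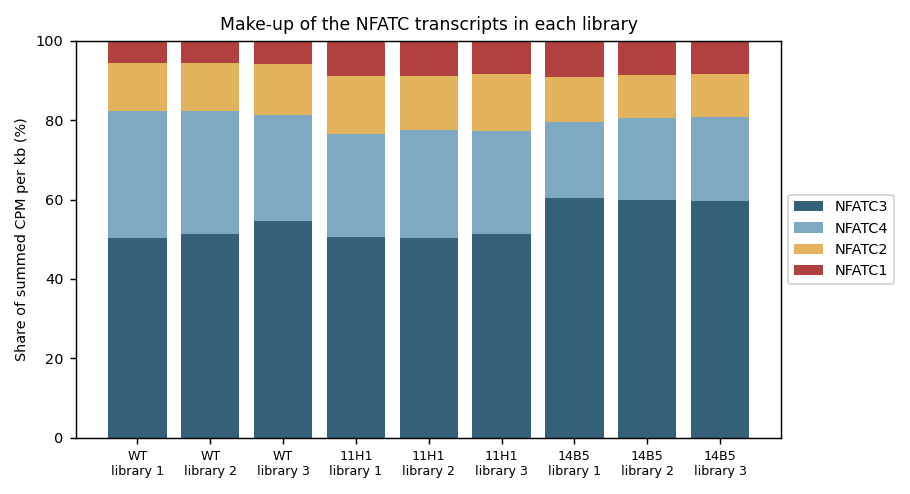
Share of each NFATC gene in the summed CPM per kb of the 4 genes (y axis, percent), 1 stacked bar per library (x axis). *NFATC1* averages 5.66% in WT, 8.64% in 11H1 and 8.71% in 14B5, and *NFATC4* is smallest in 14B5.

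Among the phosphatase subunits, *PPP3CA* (ENSG00000138814.17; chr4:101023409-101348278, minus strand), the alpha catalytic subunit of calcineurin, was at 84.3, 89.3 and 97.0 CPM in WT. The 11H1 libraries held 72.4, 75.7 and 77.0 CPM and the 14B5 libraries 94.0, 87.8 and 82.5 CPM. The 11H1 libraries lay below all others, whereas 14B5 overlapped WT. *PPP3CA* fell in 11H1 versus WT (log2FC −0.26, SE 0.05, adjusted p = 0.00129 in edgeR) and was lower in 11H1 than in 14B5 (log2FC −0.23, SE 0.05, adjusted p = 0.00281). In 14B5 versus WT the log2FC was −0.05 (95% interval −0.20 to 0.10, adjusted p = 0.544 in edgeR), and in KO it was −0.15 (adjusted p = 0.242).

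*PPP3CB* (ENSG00000107758.15; chr10:73436428-73496024, minus strand), the beta catalytic subunit, departed from WT in the other clone, being higher in 14B5 and near WT in 11H1. It measured 27.4, 28.3 and 30.1 CPM in WT, 28.3, 29.6 and 28.7 CPM in 11H1, and 38.3, 36.7 and 34.1 CPM in 14B5. Every 14B5 library lay above every other library. *PPP3CB* rose 1.26-fold in 14B5 (log2FC 0.33, SE 0.06, adjusted p = 0.00107 in edgeR), against a log2FC of 0.02 in 11H1 (95% interval −0.10 to 0.14, adjusted p = 0.760). The clones differed (log2FC −0.32 for 11H1 versus 14B5, SE 0.05, adjusted p = 2.35e-04 in edgeR), and the pooled log2FC was 0.19 (adjusted p = 0.214). The antisense gene *PPP3CB-AS1* overlaps it by 13 exonic bases and averaged 6.78 unscaled CPM; the sources differ on the library kit, and no source used here states that counting used strand.

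*PPP3R1* (ENSG00000221823.11; chr2:68178857-68256237, minus strand), the calcium-binding regulatory subunit, followed the same pattern as *PPP3CB*. WT libraries held 209, 209 and 217 CPM, 11H1 libraries 208, 223 and 216 CPM, and 14B5 libraries 262, 253 and 249 CPM, the 14B5 libraries again lying above all others. *PPP3R1* rose 1.19-fold in 14B5 (log2FC 0.25, SE 0.04, adjusted p = 9.35e-04 in edgeR) and gave a log2FC of 0.03 in 11H1 (95% interval −0.07 to 0.13, adjusted p = 0.573). The difference between the clones was −0.24 (SE 0.04, adjusted p = 4.82e-04 in edgeR), and the pooled log2FC was 0.15 (adjusted p = 0.196). Reads could be divided with *AC017083.3*, which shares 462 exonic bases on the same strand and averaged 1.85 unscaled CPM.

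The remaining subunits and the NFAT relative *NFAT5* were not among the 10 genes. *PPP3CC*, the gamma catalytic subunit, measured 18.2, 18.8 and 21.1 CPM in WT, 13.2, 13.4 and 11.7 CPM in 11H1, and 16.7, 16.9 and 17.1 CPM in 14B5, below WT in all KO libraries. It fell in 11H1 (log2FC −0.59, SE 0.08, adjusted p = 3.95e-05 in edgeR), in 14B5 (log2FC −0.21, SE 0.07, adjusted p = 0.0212) and in KO (log2FC −0.38, SE 0.13, adjusted p = 0.0486). The KO call was not retained in 7 alternative fits, including those without any 1 of the WT libraries (adjusted p = 0.0785, 0.119 and 0.184) and without 11H1 library 1 (0.0788) or 2 (0.0836). The call in 14B5 was likewise not retained without WT library 3 (adjusted p = 0.0828), 14B5 library 1 (0.0741) or 14B5 library 2 (0.0778). Per kb, *PPP3CC* made up 22.6% ± 0.322 of the 3 catalytic subunits in WT, 18.0% ± 1.29 in 11H1 and 19.6% ± 1.22 in 14B5, while *PPP3CB* made up 19.0% ± 0.396, 23.2% ± 0.123 and 23.9% ± 0.302. *PPP3R2*, the testis form of the regulatory subunit, had 0 counts in every library. *NFAT5*, which responds to osmotic stress and lacks the calcineurin-binding region of the other NFAT proteins, averaged 47.9 ± 5.95 CPM in WT, 85.7 ± 5.47 CPM in 11H1 and 44.9 ± 1.32 CPM in 14B5 (log2FC 0.85 in 11H1, adjusted p = 2.58e-06 in edgeR; −0.11 in 14B5, adjusted p = 0.280).

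Among the RCAN regulators, *RCAN1* (ENSG00000159200.18; chr21:34513142-34615142, minus strand) measured 20.0, 19.0 and 18.7 CPM in WT, 17.8, 15.6 and 19.0 CPM in 11H1, and 18.7, 19.3 and 19.9 CPM in 14B5. All 3 groups overlapped. The log2FC was −0.06 in KO (95% interval −0.25 to 0.12, adjusted p = 0.592 in edgeR), −0.13 in 11H1 (95% interval −0.30 to 0.04, adjusted p = 0.153) and −0.01 in 14B5 (95% interval −0.14 to 0.12, adjusted p = 0.890). Between the clones it was −0.14 (95% interval −0.29 to 0.02, adjusted p = 0.110 in edgeR). This difference passed the threshold in 2 of 14 alternative fits, among them that without 11H1 library 3 (log2FC −0.20, adjusted p = 0.0354). Gene-level counts sum the transcripts from all starts, and a shift between the inducible and the other starts was not tested.

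*RCAN2* (ENSG00000172348.14; chr6:46220736-46491972, minus strand), a family member known from brain and other tissues, had 0 counts in all 9 libraries. At a floor of 3 counts per library, *RCAN2* could still have been present at up to 0.0927 CPM in the smallest library, by counting error alone, and no fold is given.

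*RCAN3* (ENSG00000117602.12; chr1:24502351-24541040, plus strand), the least studied of the calcineurin-binding RCAN genes, had the largest difference from WT of the 9 tested members, in 11H1. It measured 4.96, 5.26 and 6.42 CPM in WT, 1.47, 1.19 and 1.10 CPM in 11H1, and 4.81, 4.77 and 4.16 CPM in 14B5, from 36 to 285 expected counts. The 3 groups did not overlap, with 11H1 far below and 14B5 just below WT. In 11H1 *RCAN3* fell 4.31-fold (log2FC −2.11, SE 0.16, adjusted p = 2.83e-07 in edgeR), and over the alternative fits the log2FC stayed between −2.27 and −1.998. In 14B5 the log2FC was −0.29 (SE 0.12, adjusted p = 0.0650 in edgeR). This difference passed the threshold in 2 of 14 alternative fits, among them that without WT library 1 (log2FC −0.36, adjusted p = 0.0418). The direct difference between the clones was 3.59-fold (log2FC −1.84, SE 0.15, adjusted p = 7.68e-07 in edgeR). In the pooled comparison the log2FC was −0.91 with an SE of 0.49 (adjusted p = 0.180 in edgeR). Exact permutation gave p = 0.0357 (2-sided and unadjusted), and fitting 3 groups in edgeR gave −1.20 (adjusted p = 1.19e-06). The permutation treats the 6 KO libraries as separate units although they come from 2 clones. The fit of 3 groups leaves the difference between the clones, which was large here, out of its error.

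**Figure D3:**
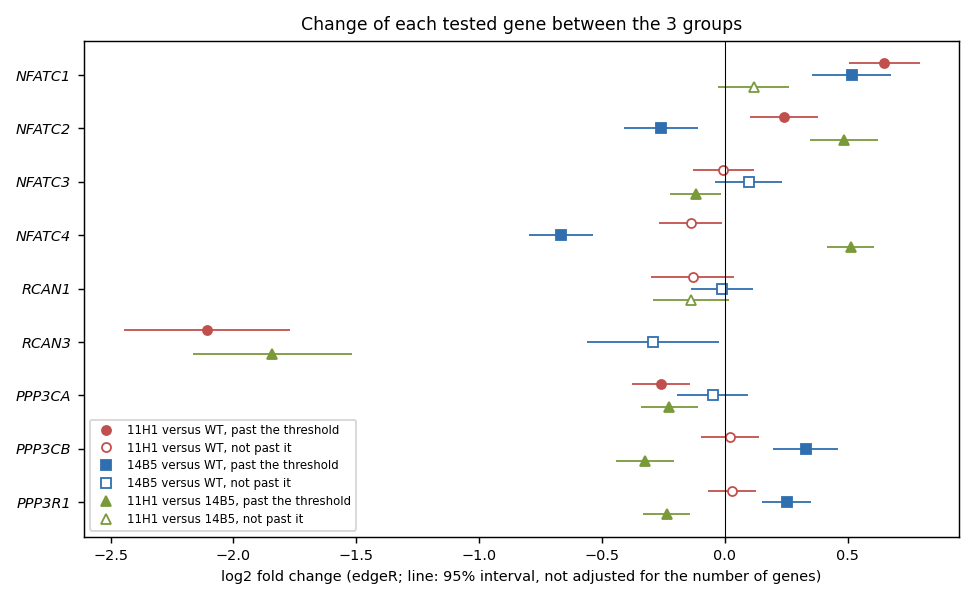
log2FC of the 9 tested genes (x axis, with 95% intervals not adjusted for the number of genes) for 11H1 versus WT, 14B5 versus WT and 11H1 versus 14B5; filled symbols passed the adjusted p threshold. *NFATC1* is to the right of 0 in both clones, *NFATC2* lies on opposite sides, and *RCAN3* is farthest left in 11H1.

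Ordered by level per kb of exon in WT, *PPP3R1* came first at 63.0 ± 1.49 CPM per kb, followed by *NFATC3* (18.0 ± 1.31), *PPP3CA* (17.3 ± 1.23), *NFATC4* (10.3 ± 0.724), *PPP3CB* (5.62 ± 0.263) and *NFATC2* (4.25 ± 0.276). *RCAN1* (2.75 ± 0.0934), *NFATC1* (1.95 ± 0.112), *RCAN3* (0.784 ± 0.108) and *RCAN2* (0) were lowest. *NFATC3* and *PPP3CA* overlapped in WT and the other neighbours did not. In 11H1 *NFATC1* (3.04 ± 0.173) stood above *RCAN1* (2.50 ± 0.249) without overlap. In 14B5 *PPP3CB* (7.13 ± 0.415) stood above *NFATC4* (6.55 ± 0.105), while *NFATC1* (2.82 ± 0.224) and *RCAN1* (2.76 ± 0.0845) overlapped. With the median length of the coding transcripts in place of all exons, a choice added after the data were seen, *NFATC4* came before *PPP3CA* in WT (30.6 against 25.0 CPM per kb) and *PPP3CB* stayed below *NFATC4* in 14B5 (11.7 against 19.5). With that length *NFATC1* and *RCAN1* overlapped in 11H1 (7.97 and 7.13 CPM per kb) and in 14B5 (7.42 and 7.88), so their order in the clones depends on the length used.

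The members lie on 10 chromosomes, and each was set beside the other tested genes that start within 5000000 bases of it. The neighbours' median log2FC ran from −0.20 to 0.20 in 11H1 and from −0.14 to 0.08 in 14B5 versus WT. For *NFATC1* the 21 neighbours had medians of −0.07 in 11H1 and 0.01 in 14B5, and for *RCAN3* the 137 neighbours had medians of −0.03 and 0.01. The value of *PPP3CA* in 11H1 (−0.26) was close to the median of its 40 neighbours (−0.20), and the value of *RCAN1* in 11H1 (−0.13) to that of its 74 neighbours (−0.15).

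**Figure D4:**
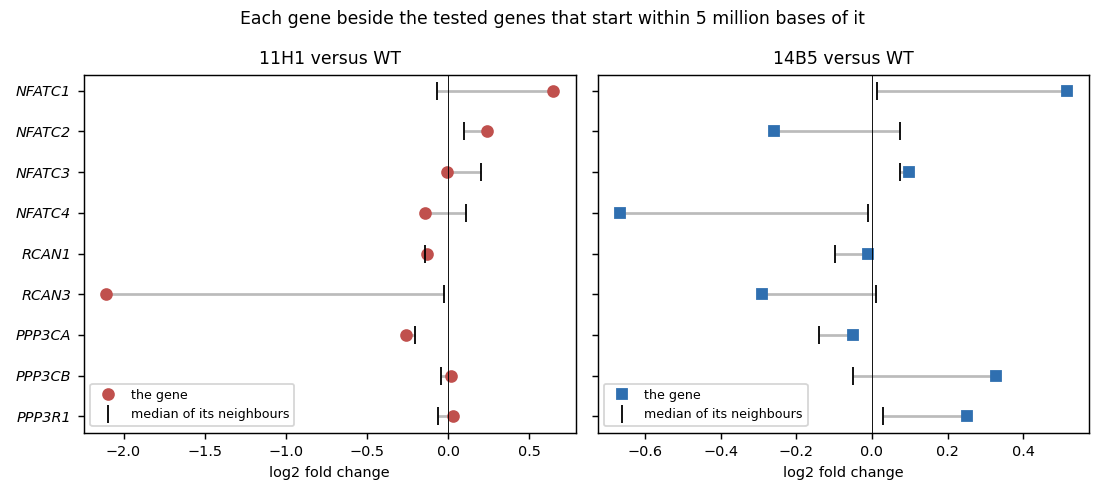
log2FC of each tested gene (colored symbol) and the median of the tested genes starting within 5000000 bases of it (black mark), for 11H1 versus WT (left) and 14B5 versus WT (right). *NFATC1*, *RCAN3* in 11H1, and *NFATC4* and *PPP3CB* in 14B5 stand farthest from their neighbours' medians, and *PPP3CA* and *RCAN1* in 11H1 lie close to theirs. No cutoff was set, and others lie between, such as *NFATC2* (−0.26 against 0.07) and *RCAN3* (−0.29 against 0.01) in 14B5.

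The genes whose pattern over the 9 libraries was most like that of *RCAN3*, by the root-mean-square difference of centred log2 CPM among 11935 protein-coding genes, were *DDIT4* (0.165), *LGALS3BP* (0.211) and *NSG1* (0.258), where the own spread of *RCAN3* was 0.951. *DDIT4*, for example, averaged 34.6 CPM in WT, 7.92 CPM in 11H1 and 27.4 CPM in 14B5. For *RCAN1*, which hardly varied (0.102), they were *MTIF2* (0.0458), *MNS1* (0.0545) and *RBMXL1* (0.0562).

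Around the 10 genes, 74 further genes of the pathway were listed in 7 groups by role. In KO versus WT 54 were tested, of which 6 rose and 12 fell, where 14.3% of all genes tested rose and 17.7% fell. In 11H1 versus WT 16 rose and 19 fell of 53 (31.8% and 32.8% of all genes), and in 14B5 versus WT 13 rose and 20 fell of 53 (24.9% and 28.7% of all genes). The same shares apply to the smaller groups that follow, and nothing particular to a group was read from its count. The genes named next passed the threshold in the same direction in both clones, with adjusted p of at most 0.0231 in edgeR. Of 13 genes of calcium entry and calmodulin, 1 rose and 3 fell in KO (median log2FC −0.15). *PLCG2* and *PLCG1*, phospholipases that generate the signal for calcium release, fell in 11H1 (log2FC −0.73 and −0.57) and in 14B5 (−1.24 and −0.96). *ORAI3*, a plasma membrane calcium channel subunit, fell in both clones (−0.78 and −0.19), and *ITPR2*, a calcium release channel of the endoplasmic reticulum, rose (0.38 and 0.23).

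The 8 kinases listed as known to phosphorylate NFAT include *DYRK1A*. In KO 2 of the 8 rose and 2 fell (median log2FC 0.05), beside 14.3% and 17.7% of all genes tested. *CSNK1A1* (log2FC −0.61 in 11H1 and −0.36 in 14B5) and *CSNK1E* (−0.36 and −0.24) fell, and their casein kinase 1 relative *CSNK1D* (0.31 and 0.15) and the glycogen synthase kinase *GSK3A* (0.25 and 0.21) rose. Of 9 other regulators of calcineurin, 7 were tested in KO and 2 fell: *HOMER3*, a scaffold protein (−0.64 and −0.76), and *AKAP5*, which anchors calcineurin at membranes (−0.23 and −0.35). Of 9 other calcineurin substrates, 0 rose and 3 fell in KO, the transcription factors *TFEB* (−0.71 and −1.08), *MEF2C* (−0.36 and −0.70) and *MEF2A* (−0.21 and −0.28), although the median of the 9 in KO was 0.08.

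Of 10 partners of NFAT on DNA, 8 were tested in KO, 2 rose and 1 fell, against the same 14.3% and 17.7% of all genes. The AP-1 members *FOSL2* and *JUNB* went in opposite directions: *FOSL2* fell in both clones (log2FC −0.90 and −1.44) and *JUNB* rose (0.50 and 0.72). The other partner that rose was *FOS* (1.70 and 0.91), at a mean of 0.857 CPM over all libraries. Of 22 known NFAT target genes, mostly cytokines and activation genes of lymphocytes, 7 were tested in KO and 1 rose, *NR4A2* (0.93 in 11H1 and 0.63 in 14B5), from a mean of 0.723 CPM in WT. In 11H1 versus WT 3 of 6 tested rose and 0 fell (31.8% and 32.8% of all genes). In 14B5 versus WT 1 rose and 2 fell of 6 (24.9% and 28.7%). Between the clones 5 of 7 were higher in 11H1 and 0 lower (31.6% and 32.1%). Those 5 averaged 0.145 to 1.42 CPM over all libraries. Another 12 of the 22 had at most 3 counts in every library, and 5 of these, *IL2* among them, had 0, so that most targets could not be read in these cells at this depth.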

How the data were processed

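The values are RSEM expected counts as deposited by the authors, the estimated number of reads with shared reads divided among genes, without normalization. The submitters' processing notes name STAR 2.7.9a, Picard, RSEM and GRCh38; the annotation release and whether counting used strand are not given in the sources used here. The paper's methods describe a stranded mRNA kit, whereas the labels name another kit, and the paper gives fewer KO libraries than the 6 deposited, all of which were used. Library totals ran from 32347779 to 60272245, and the limit of 3 counts covers counting error only, whereas the intervals of log2FC include the spread between the libraries fitted. From the deposited table, 92 spike-in entries at 0 were left out. Coordinates and exon lengths were taken from GENCODE v29 (GRCh38), in which 58577 of 60662 genes (96.6%) were found by identifier without version, and upstream sequences from RefSeq.

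Expected counts were rounded and tested with edgeR 4.0.16 in R 4.3.3 (TMM, filterByExpr, quasi-likelihood F test, Benjamini-Hochberg over all genes tested, threshold 0.05), with only the groups compared in each fit. The steps were tested on simulated data with few changed genes and no difference between clones, a setting unlike these data. SE is the size of log2FC divided by the square root of F. A prior count of 2 was used for log2 CPM in the permutation test and pattern comparison. All 10 genes are named; of the other lists, genes past the threshold in the same direction in both clones with a mean of at least 1 CPM are named, at most 4 per list, as are *DYRK1A*, *PPP3CC*, *PPP3R2*, *NFAT5* and *IL2*. *FOS*, below 1 CPM on average, is named as the other partner that rose. The members and lists were chosen with earlier results of these data known. Alternatives were DESeq2 1.42.0 size factors and Wald test, limma-voom (limma 3.58.1) on unrounded values, omission of the low-count filter, a minimum of 10 counts in every library, restriction to protein-coding genes, a block for the replicate number, WT and the clones fitted as 3 groups, and leaving out each library. The exon length was also exchanged for the median coding transcript.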

Additional observations from a re-analysis of the deposited data

Results flagged for a closer look

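For 7 of the 9 tested genes the effect in 11H1 differed from that in 14B5 by a direct test of the clones (edgeR, adjusted p of 0.0463 or below), where 63.7% of all genes tested did so. The difference, 11H1 minus 14B5 on the log2 scale, was 0.51 for *NFATC4*, 0.48 for *NFATC2*, −0.12 for *NFATC3*, −1.84 for *RCAN3*, −0.23 for *PPP3CA*, −0.32 for *PPP3CB* and −0.24 for *PPP3R1*. All 3 phosphatase subunits were lower in 11H1 than in 14B5, through *PPP3CA* below WT in 11H1 and *PPP3CB* and *PPP3R1* above WT in 14B5. *NFATC2* was the only one of the 10 genes that passed the threshold in opposite directions in the clones. Mitochondrial counts also differed between the clones (7.23% to 7.39% in 11H1, 3.30% to 3.92% in 14B5), with WT at 3.54% to 6.03%, and their part was not tested. Each clone stems from 1 cell, so a difference between the clones cannot be told apart from one between their founder cells.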

How the results depend on the processing

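Over 531 refits of members and comparisons, 502 left the call as it was, 9 lost it, 20 gained it and 0 reversed a call. The number of members past the threshold in KO versus WT was 1; it was 6 (3 higher, 3 lower) when WT and each clone were fitted as 3 groups, and from 1 to 2 when single libraries were left out (2 without 11H1 library 1, which added *NFATC4*). In the fit of 3 groups all genes past the threshold in KO versus WT numbered 10245 in place of 5471. The added members were *NFATC4*, *RCAN3*, *PPP3CA*, *PPP3CB* and *PPP3R1*; that fit takes the spread within each clone as its error, whereas the pooled one includes the difference between clones. *NFATC1* stayed past the threshold in KO and in both clones in every alternative, with a log2FC of 0.56 to 0.63 in KO. *NFATC1* in 11H1 versus 14B5 passed it without 14B5 library 1 (adjusted p = 0.0333 in edgeR) and among protein-coding genes only (0.0467). Deviations of log2 CPM from the group mean correlated at −0.145 to 0.0581 between same-numbered libraries of different groups. Between different-numbered ones they correlated at −0.111 to 0.141. No pairing by number was seen, but 3 libraries per group limit this check. With the replicate number as a block, members past the threshold were 1 in KO, 5 in 11H1 and 5 in 14B5 versus WT and 6 between the clones. Depth limits *RCAN2* and most NFAT targets, and 2 clones limit what holds for *DYRK1A* KO in general.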
